A study of Mus musculus with 6 samples.

Results

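Dentate granule cell markers are genes whose RNA is enriched in the granule neurons of the dentate gyrus, the entry field of the hippocampus. The set held 10 genes chosen by name (Prox1, C1ql2, Stxbp6, Trpc6, Calb1, Lct, Tdo2, Dsp, Npnt, and Pdzd2). They were chosen with earlier results of these data known, so counts over the set are not independent evidence. All 10 were among the 14477 genes for which hippocampal RNA-Seq values were deposited. RNA came from 3 mice homozygous for Phf21bΔ4 (replicates 2, 3, and 6) and 3 Phf21b+/+ mice (replicates 5, 7, and 8), with 1 library per mouse and no treatment. Both genotypes were young adult littermates on a C57BL/6J background, and the sex, exact age, litter, day of dissection, and batch of each of these 6 mice are not given in the sources used here, so their part in any difference was not tested. Phf21bΔ4 is a whole-body CRISPR/Cas9 deletion in exon 4 and is not confined to granule cells. It lowers Phf21b, a histone reader with a plant homeodomain finger, in the hippocampus, where the study measured it. It is a knockdown and not a complete loss.

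Granule cells receive the perforant path from the entorhinal cortex and send mossy fibers to CA3 pyramidal neurons. PROX1 is the homeodomain factor that sets and keeps their identity, calbindin buffers calcium in mature granule cells, and the secreted protein C1QL2 acts at mossy fiber synapses. Some of the markers are also made elsewhere, since Calb1 is found in CA1 pyramidal neurons and interneurons and Prox1 in a class of interneurons. In RNA from a whole piece of tissue, fewer granule cells and less RNA per granule cell cannot be told apart.

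Across these markers the 3 Phf21bΔ4/Δ4 mice did not behave as a uniform group. In replicates 2 and 3 all 10 markers lay below every Phf21b+/+ mouse (38.0% and 39.3% of all genes), and the median marker was 2.79-fold and 2.78-fold below the Phf21b+/+ mean. In replicate 6 the median marker was 1.24-fold below that mean, and Lct was higher than in any other mouse. With all 6 mice in the fit, 1 of the 10 markers (Pdzd2) was past the threshold for differential expression, and it was lower in Phf21bΔ4/Δ4 mice. The threshold was an FDR under 0.1 with a fold change above 1.3 by limma's moderated test over all genes, at which 1.22% of all genes were called, 0.663% as lower. The results that follow therefore give each mouse on its own before the genotype.

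Phf21b itself had 2.15, 3.57, and 3.87 CPM (read counts scaled to the effective library size) in Phf21bΔ4/Δ4 replicates 2, 3, and 6 and 6.50, 5.23, and 6.47 CPM in Phf21b+/+ replicates 5, 7, and 8. All 3 Phf21bΔ4/Δ4 libraries were thus below all 3 Phf21b+/+ libraries, although the change was not past the threshold (log2FC -0.96 ± 0.26 SE, FDR 0.14, limma). Each library held between 20495605 and 24881257 reads on the listed genes, and the lowest count for a marker was 63 reads (Tdo2, Phf21bΔ4/Δ4 replicate 3), so the markers stood well above the level of 3 reads in every mouse.

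The promoters of Lct, Dsp, and C1ql2 are shown because these 3 markers had the largest log2 fold changes and carry the contrast between the mice described next. The sequences are RefSeq's (GRCm38.p6), run 5′ to 3′ from 250 bases before the start of the gene to 50 bases after it, and carry E-boxes (CANNTG, on either strand) in capitals. E-boxes are the core that basic helix-loop-helix factors such as NEUROD1 bind.
Lct, chr1:128328269-128328568, minus strand: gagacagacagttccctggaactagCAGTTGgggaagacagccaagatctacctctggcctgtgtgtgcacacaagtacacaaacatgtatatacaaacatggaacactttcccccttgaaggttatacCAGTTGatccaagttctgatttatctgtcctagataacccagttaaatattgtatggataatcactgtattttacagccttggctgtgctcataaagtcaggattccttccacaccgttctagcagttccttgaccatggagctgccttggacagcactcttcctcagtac
Dsp, chr13:38151044-38151343, plus strand: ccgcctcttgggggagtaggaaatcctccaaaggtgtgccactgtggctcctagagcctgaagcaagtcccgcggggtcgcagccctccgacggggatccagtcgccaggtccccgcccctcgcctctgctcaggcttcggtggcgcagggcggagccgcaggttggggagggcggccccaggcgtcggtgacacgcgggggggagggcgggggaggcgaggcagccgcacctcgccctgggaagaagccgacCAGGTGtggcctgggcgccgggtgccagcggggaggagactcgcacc
C1ql2, chr1:120340332-120340631, plus strand: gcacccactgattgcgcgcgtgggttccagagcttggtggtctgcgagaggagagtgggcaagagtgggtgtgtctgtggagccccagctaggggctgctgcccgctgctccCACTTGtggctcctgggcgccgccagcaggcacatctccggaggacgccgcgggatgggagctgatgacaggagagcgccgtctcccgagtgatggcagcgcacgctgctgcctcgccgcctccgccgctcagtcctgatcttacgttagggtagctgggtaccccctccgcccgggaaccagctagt
Of the 10 markers, 9 had promoter entries, with 11 windows in all, and Calb1 had no match. An E-box was found in 6 of the 11 windows and in 72.3% of all 32851 windows of 300 bases. The core of the cAMP response element (TGACG, on either strand) was found in 2 of the 11, those of Trpc6 and Npnt, and in 20.8% of all windows. The full element (TGACGTCA), which contains this core, was in 0 of the 11 and in 1.79% of all. These are matches of letters and not sites shown to be bound.

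Prox1 (ENSMUSG00000010175.13), the homeodomain transcription factor, is encoded on the minus strand of chromosome 1 (GRCm38, positions 190118035 to 190170714). Its levels were 50.4, 44.4, and 110 CPM in Phf21bΔ4/Δ4 replicates 2, 3, and 6 and 149, 115, and 134 CPM in Phf21b+/+ replicates 5, 7, and 8. Replicates 2 and 3 were low, replicate 6 was just under the lowest Phf21b+/+ mouse, and the genotypes did not overlap. The means were 68.2 ± 36.1 CPM and 133 ± 17.2 CPM (SD, n = 3 each), with a log2 fold change (log2FC) of -1.08 ± 0.33 (SE; FDR 0.15, limma). The antisense transcript Prox1os shares 133 exonic bases with Prox1, and whether counting used the strand is not stated, so reads in this stretch could not be assigned to one or the other. Prox1os had 1.73, 1.19, and 4.61 CPM in the Phf21bΔ4/Δ4 mice and between 4.63 and 5.46 CPM in the Phf21b+/+ mice. It too was low in replicates 2 and 3.

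Among the synaptic and membrane genes, C1ql2 (ENSMUSG00000036907.9) is a plus-strand gene of chromosome 1 (positions 120340582 to 120343174). It had 25.6, 22.4, and 81.6 CPM in Phf21bΔ4/Δ4 replicates 2, 3, and 6 and 111, 99.9, and 91.3 CPM in Phf21b+/+ replicates 5, 7, and 8. The first pair of mice lay far under replicate 6 of their own genotype, and replicate 6 was below the lowest Phf21b+/+ mouse. Its log2FC was -1.48 ± 0.46 (SE; FDR 0.16, limma). Stxbp6, which encodes amisyn, a regulator of SNARE assembly, is a minus-strand gene of chromosome 12 (positions 44852484 to 45074709) and had 56.9, 53.1, and 111 CPM against 142, 134, and 136 CPM. Its Phf21b+/+ values lay within 0.08 of each other on the log2 scale, and all 3 Phf21bΔ4/Δ4 mice were below them. For Stxbp6 the fit gave a log2FC of -0.99 ± 0.27 (SE; FDR 0.14, limma). Trpc6, a receptor-activated cation channel, is a plus-strand gene of chromosome 9 (positions 8544142 to 8680741) and had 33.3, 37.5, and 70.9 CPM against 99.0, 87.7, and 99.9 CPM. Here too replicate 6 lay between the other Phf21bΔ4/Δ4 mice and the Phf21b+/+ mice. For Trpc6 the fit gave a log2FC of -1.10 ± 0.27 (SE; FDR 0.13, limma).

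Calb1, the calcium buffer calbindin, had another order of mice than the other markers. It is a plus-strand gene of chromosome 4 (positions 15881264 to 15908064) and had 149, 126, and 120 CPM in Phf21bΔ4/Δ4 replicates 2, 3, and 6 and 168, 150, and 149 CPM in Phf21b+/+ replicates 5, 7, and 8. Replicate 2 was nearly level with the Phf21b+/+ mice, and replicate 6, the mouse with the highest level of the 3 in the other 9 markers, was the lowest. For Calb1 the fit gave a log2FC of -0.25 ± 0.10 (SE; FDR 0.21, limma), the smallest of the 10, and its 95% interval ran from -0.50 to -0.00099.

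Of the enzymes, Lct (ENSMUSG00000026354.8) encodes lactase, better known from the gut, and is a minus-strand gene of chromosome 1 (positions 128284756 to 128328318). It had 11.9, 13.2, and 148 CPM in Phf21bΔ4/Δ4 replicates 2, 3, and 6 and 133, 113, and 114 CPM in Phf21b+/+ replicates 5, 7, and 8. In reads, these were 281, 277, and 3402 against 2802, 2689, and 2531. Lct was thus 10.1-fold and 9.07-fold below the Phf21b+/+ mean in replicates 2 and 3, while replicate 6 had the highest level of all 6 mice, so the genotypes overlapped. Its log2 fold change of -2.07 was the largest of the markers in size and also the least certain (SE 0.92; FDR 0.23, limma), with a 95% interval from -4.26 to 0.12. Tdo2, tryptophan 2,3-dioxygenase of the kynurenine pathway, is a minus-strand gene of chromosome 3 (positions 81957090 to 81976202) and had 5.95, 3.0, and 14.4 CPM against 15.3, 17.3, and 19.7 CPM. Replicate 6 was close to the lowest Phf21b+/+ mouse, and replicates 2 and 3 were far below it. For Tdo2 the fit gave a log2FC of -1.45 ± 0.52 (SE; FDR 0.18, limma).

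The adhesion and scaffold genes differed in their spread. Dsp (ENSMUSG00000054889.10), desmoplakin, which anchors intermediate filaments at desmosomes, is a plus-strand gene of chromosome 13 (positions 38151294 to 38198577). It had 14.8, 19, and 97.1 CPM in Phf21bΔ4/Δ4 replicates 2, 3, and 6 and 138, 108, and 96.3 CPM in Phf21b+/+ replicates 5, 7, and 8. Replicate 6 lay within the Phf21b+/+ range, and the other two were 7.64-fold and 5.93-fold below the Phf21b+/+ mean. For Dsp the fit gave a log2FC of -1.91 ± 0.67 (SE; FDR 0.17, limma). An antisense gene model, Gm10129, shares 499 bases with Dsp, so the limit given for Prox1 holds here too. Npnt, nephronectin, an integrin ligand of the extracellular matrix, is a minus-strand gene of chromosome 3 (positions 132881745 to 132950291) and had 11.0, 15.9, and 22.7 CPM against 30.9, 29.0, and 30.3 CPM. All 3 Phf21bΔ4/Δ4 mice were under the narrow Phf21b+/+ range, in the order 2, 3, 6. For Npnt the fit gave a log2FC of -0.92 ± 0.24 (SE; FDR 0.14, limma).

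Pdzd2 (ENSMUSG00000022197.16), a protein with several PDZ domains, is a minus-strand gene of chromosome 15 (positions 12359711 to 12739924). It had 38.8, 48.1, and 48.5 CPM in Phf21bΔ4/Δ4 replicates 2, 3, and 6 and 70.3, 76.4, and 71.6 CPM in Phf21b+/+ replicates 5, 7, and 8. In this gene replicate 6 was as low as replicate 3, and the genotypes lay clearly apart. The means were 45.1 ± 5.53 CPM and 72.7 ± 3.22 CPM (SD, n = 3 each). Pdzd2 fell by 0.70 on the log2 scale (SE 0.11; FDR 0.069, limma), a 1.62-fold decrease. Pdzd2 is also on the study's own list of changed genes, which was drawn from these same mice, so that list is not independent evidence. Its call was lost when any of 5 of the mice was left out (all but Phf21bΔ4/Δ4 replicate 6), with an FDR of up to 0.27 by limma.

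**Figure D1:**
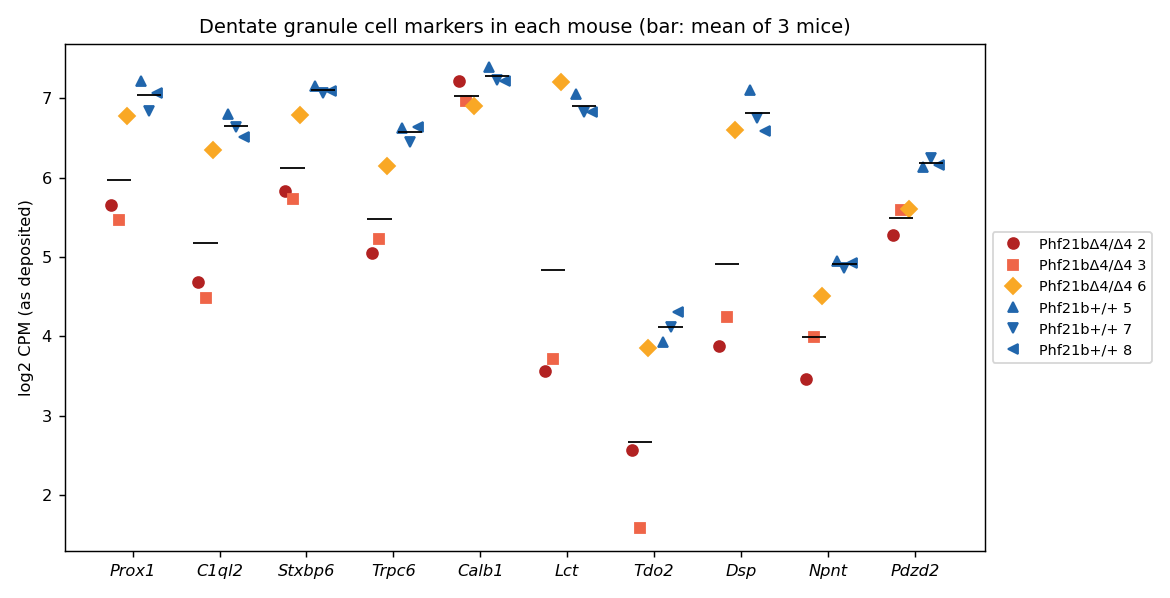
Deposited log2 CPM of the 10 markers in each mouse, with 1 point per mouse and a bar at the mean of the 3 mice of a genotype. Phf21bΔ4/Δ4 replicates 2 and 3 lie far below the Phf21b+/+ mice in most markers (Lct at 3.57 and 3.72 against 6.83 to 7.05), while replicate 6 lies near them, and in Calb1 and Pdzd2 the 3 Phf21bΔ4/Δ4 mice lie close together.

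As a set, the markers had a median log2 fold change of -1.09, beside -0.02 over all 14477 genes, and all 10 had a value below 0, as had 52.4% of all genes. At an unadjusted p under 0.05 by limma, 9 of the 10 were lower (all but Lct), beside 12.0% of all genes. In 8 of the 10 (all but Lct and Dsp) every Phf21bΔ4/Δ4 mouse lay below every Phf21b+/+ mouse, beside 16.0% of all genes. For 3 against 3 mice the smallest p of a two-sided exact permutation test is 0.1, which these 8 genes had. The CPM of the 10 markers summed to 397, 382, and 824 in Phf21bΔ4/Δ4 replicates 2, 3, and 6 and to 1058, 931, and 943 in Phf21b+/+ replicates 5, 7, and 8.

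The spread within the Phf21bΔ4/Δ4 genotype was the main feature of the set. The SD of the log2 values was larger in Phf21bΔ4/Δ4 than in Phf21b+/+ mice for all 10 markers, beside 62.7% of all genes. Its median was 0.65 in Phf21bΔ4/Δ4 mice and 0.12 in Phf21b+/+ mice for the markers, and 0.17 and 0.13 for all genes. This was not particular to granule cell markers among the lists described below. The SD was also larger in Phf21bΔ4/Δ4 mice for all 9 CA2 and CA3 markers (median 0.69 against 0.18). The same held for all 7 oligodendrocyte markers (0.30 against 0.14) and all 9 medial habenula markers (0.53 against 0.38). It held for 12 of the 16 other dentate-enriched genes (0.38 against 0.17) and 7 of 8 CA1 markers (0.50 against 0.30). It held for 4 of 8 interneuron, 3 of 9 thalamic, and 0 of 9 choroid plexus markers. Lct had an SD of 2.06 in Phf21bΔ4/Δ4 mice, larger than that of 99.6% of genes, and Dsp had 1.47, larger than that of 98.9%. At the other end, Calb1 and Pdzd2 had 0.16 and 0.18, near the middle of all genes. Replicate 6 was the highest of the 3 Phf21bΔ4/Δ4 mice in 9 of the 10 markers, beside 38.5% of all genes. Relative to the Phf21b+/+ mean, the markers ran from -3.34 to -0.06 in replicate 2, from -3.18 to -0.31 in replicate 3, and from -0.58 to 0.31 in replicate 6 on the log2 scale. Replicate 6 lay below every Phf21b+/+ mouse in 8 markers (31.9% of all genes), with Dsp inside their range and Lct above it (30.4% of all genes). The Phf21b+/+ mice stayed close together, and replicate 5 was the highest of them in 7 of the 10.

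**Figure D2:**
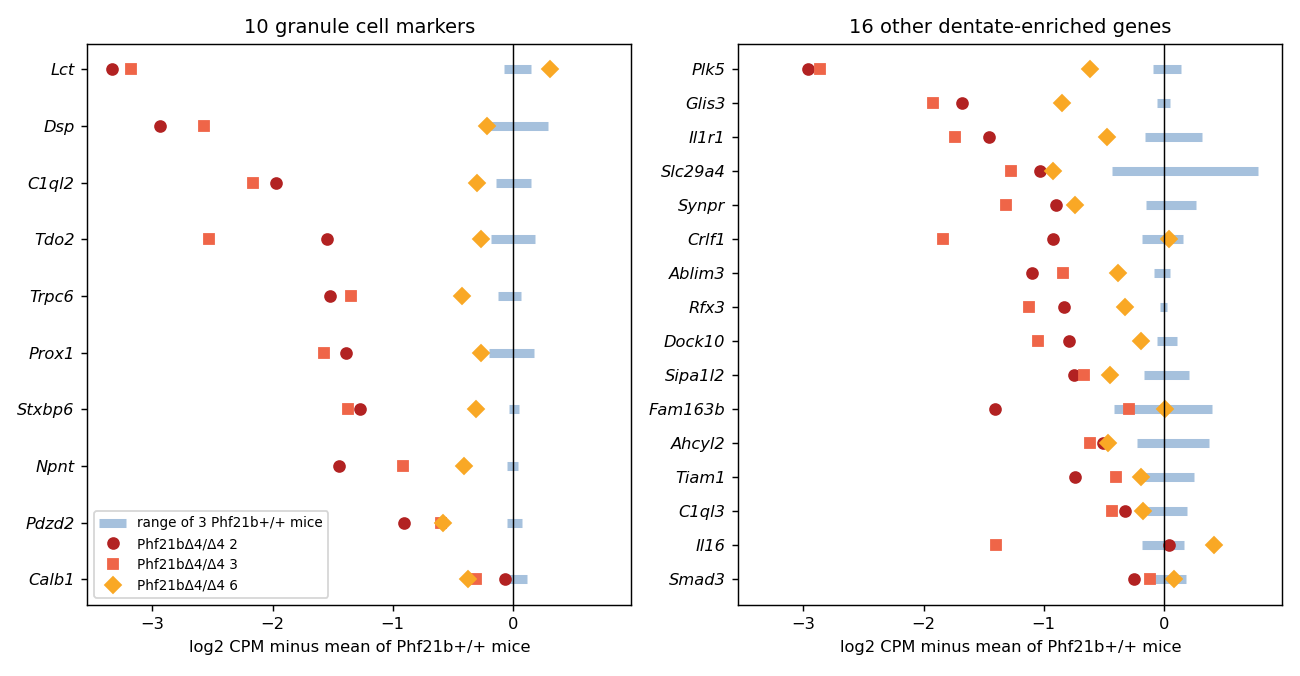
Log2 CPM of each Phf21bΔ4/Δ4 mouse minus the mean of the Phf21b+/+ mice, for the 10 markers (left) and 16 other dentate-enriched genes (right), with the range of the 3 Phf21b+/+ mice as a band. The points of replicates 2 and 3 reach -3.34 for Lct, and the marker points of replicate 6 stay between -0.58 and 0.31.

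The number of markers past the threshold depended on single mice. Without Phf21bΔ4/Δ4 replicate 6, 9 of the 10 markers (all but Calb1) were past the threshold and lower, beside 9.29% of all genes, and the median log2 fold change of the 10 was -1.46. In that fit Lct changed by -3.26 (SE 0.11; FDR 0.0012, limma), Dsp by -2.75 (SE 0.19; FDR 0.0038), and C1ql2 by -2.07 (SE 0.11; FDR 0.0020). Prox1 changed by -1.48 (SE 0.13; FDR 0.0076, limma) and Calb1 by -0.19 (FDR 0.26). Without any one of the other 5 mice, 0 markers were past the threshold, beside 0.173% and 0.235% of all genes called lower without Phf21bΔ4/Δ4 replicates 2 and 3 and 0.159%, 0.0829%, and 0.0622% without Phf21b+/+ replicates 5, 7, and 8. Weighting the mice by how closely each followed its group over all genes gave 9 markers, beside 14.3% of all genes, and a single prior variance for all genes gave 0, beside 0.428%. Replicate 6 alone was also set against the 3 Phf21b+/+ mice, a comparison chosen after the values were seen, in which the single mouse is assumed to vary like the others. It had 0 markers past the threshold, beside 0.338% of all genes, a median log2 fold change of -0.31, and Lct at 0.31 in the opposite direction (SE 0.13; FDR 0.55, limma).

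**Figure D3:**
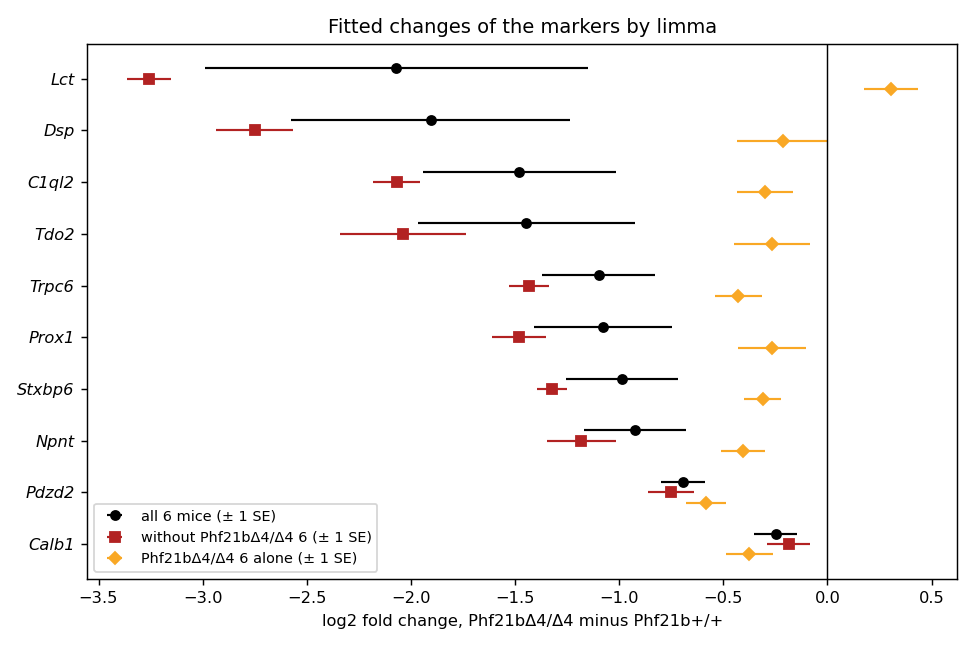
Log2 fold change of each marker by limma with 1 standard error to each side, from all 6 mice, without Phf21bΔ4/Δ4 replicate 6, and from replicate 6 alone against the Phf21b+/+ mice. For Lct the 3 values are -2.07, -3.26, and 0.31, and for Pdzd2 and Calb1 the 3 lie close together.

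Levels were compared between markers only after division by exonic length. In Phf21b+/+ mice C1ql2 stood highest with 50.4 ± 5.01 CPM per kb (SD, n = 3), followed by Calb1 with 32.2 ± 2.24 and Stxbp6 with 26.0 ± 0.784 CPM per kb. Trpc6, Lct, Prox1, and Dsp came next with 18.9, 18.7, 15.8, and 11.8 CPM per kb, and in this stretch each overlapped its neighbor in the range of the 3 mice. Npnt had 5.99 CPM per kb, and Tdo2 and Pdzd2 came last with 4.50 and 3.95 CPM per kb and overlapping ranges. In Phf21bΔ4/Δ4 replicates 2 and 3 the order at the top changed, with Calb1 at 30.7 and 25.9 CPM per kb and C1ql2 at 12.8 and 11.2 CPM per kb. In replicate 6 C1ql2 was again above Calb1, with 40.8 and 24.8 CPM per kb.

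A list of 16 other genes enriched in the dentate gyrus was read in the same way. It was written from general knowledge but with earlier results of these data known, so its counts are not independent evidence either. Of these 16, 2 were past the threshold and lower, Glis3 and Synpr, beside 0.663% of all genes, and 0 were higher. Glis3, a zinc finger transcription factor, had 11.0, 9.29, and 19.5 CPM in Phf21bΔ4/Δ4 replicates 2, 3, and 6 and 33.7, 36.4, and 35.3 CPM in Phf21b+/+ replicates 5, 7, and 8 (log2FC -1.48, FDR 0.089, limma). Synpr, the synaptic vesicle protein synaptoporin found at mossy fiber terminals, had 159, 119, and 178 CPM against 273, 268, and 355 CPM (log2FC -0.98, FDR 0.093, limma). In both, all Phf21bΔ4/Δ4 mice were below all Phf21b+/+ mice, as they were in 12 of the 16 genes and in 16.0% of all genes. Plk5, a polo-like kinase gene, had 3.54, 3.81, and 18.1 CPM against 30.6, 26.7, and 26.0 CPM (log2FC -2.15 ± 0.60 SE, FDR 0.14, limma). Rfx3, a transcription factor of ciliary genes, had 146, 119, and 207 CPM against 264, 261, and 254 CPM (log2FC -0.76, FDR 0.13, limma). Both had the order seen in Prox1 and C1ql2, with replicate 6 between the other Phf21bΔ4/Δ4 mice and the Phf21b+/+ mice. At the other end of the list Smad3, a TGF-β signal transducer, was nearest to 0 in the fit (log2FC -0.09, FDR 0.64, limma).

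The median log2 fold change of the 16 genes was -0.72, and all 16 had a value below 0. Replicate 6 was the highest of the Phf21bΔ4/Δ4 mice in 16 of the 16, beside 38.5% of all genes. Their median relative to the Phf21b+/+ mean was -0.86, -1.09, and -0.35 in replicates 2, 3, and 6. Without replicate 6, 12 of the 16 were past the threshold and lower, beside 9.29% of all genes, and without any one of the other 5 mice 0 were, beside 0.0622% to 0.235%.

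Markers of immature granule neurons are made by the dividing and newborn cells under the granule cell layer. Of 7 such markers 0 were past the threshold, beside 1.22% of all genes. A log2 fold change below 0 was found in 5 of the 7, beside 52.4% of all genes. At an unadjusted p under 0.05 by limma, 3 were lower, beside 12.0% of all genes, and 0 were higher. Neurod1, a basic helix-loop-helix factor of young granule cells, had 19.2, 14, and 22.7 CPM in Phf21bΔ4/Δ4 replicates 2, 3, and 6 and 29.9, 24.1, and 30.5 CPM in Phf21b+/+ replicates 5, 7, and 8 (log2FC -0.62, FDR 0.16, limma). Igfbpl1 had 2.32, 2.62, and 9.70 CPM against 7.17, 13.5, and 9.84 CPM (log2FC -1.34, FDR 0.21, limma). Eomes had 0.76, 0.57, and 1.70 CPM against 1.23, 5.78, and 3.42 CPM. Draxin had 1.27, 0.71, and 1.83 CPM against 2.33, 1.86, and 2.20 CPM. These genes shared the low values of replicates 2 and 3. Dcx, the microtubule protein of migrating neurons, did not, with 17.4, 26.6, and 14.9 CPM against 13.1, 14.6, and 18.2 CPM (log2FC 0.33, FDR 0.40, limma). Dcx was higher in replicates 2 and 3 than in replicate 6. Tubb2b did not share them either, with 179, 159, and 157 CPM against 165, 127, and 149 CPM. Sox11 had 29.9, 45.7, and 34.6 CPM against 41.6, 40.3, and 42.4 CPM, with replicate 2 lowest and replicate 3 highest.

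Markers of neighboring regions and cell types also moved with genotype or with single mice, and their part in the results above was not tested. All 9 medial habenula markers, which belong to a nucleus next to the hippocampus, were past the threshold and lower, beside 0.663% of all genes, with a summed level of 6.0 to 9.87 CPM in Phf21bΔ4/Δ4 mice and 159 to 214 CPM in Phf21b+/+ mice. At least 8 of the 9 are also on the study's own list of genes changed in these same mice, so their count is not independent evidence. Irx2 and Chat had 0 reads in Phf21bΔ4/Δ4 replicates 3 and 6, and Pou4f1 had 0 reads in replicate 6. This difference was as large in replicate 6 as in the others (median -5.16, -5.30, and -5.56 on the log2 scale in replicates 2, 3, and 6). Of the 9 thalamic markers listed, 1 was past the threshold and lower (Tcf7l2, also on the study's list), beside 0.663% of all genes. The thalamic markers summed to 130 to 229 CPM in Phf21bΔ4/Δ4 mice and 261 to 569 CPM in Phf21b+/+ mice. For the choroid plexus 1 of 9 was past it and lower (Otx2), again beside 0.663% of all genes. The choroid plexus sum ran from 23.7 to 83.3 CPM in Phf21bΔ4/Δ4 mice and from 29.5 to 15886 CPM in Phf21b+/+ mice. It was highest in replicate 7, where Ttr, the marker of highest level, had 14542 CPM. Kcnj13 and Tmem72 had 0 reads in Phf21bΔ4/Δ4 replicate 6.

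Within the hippocampus, the 8 CA1 pyramidal markers listed had values above 0 in the fit, and 3 were past the threshold and higher (Fibcd1, Mpped1, and Gpr161, all also on the study's list), beside 0.553% of all genes. They summed to 1137 to 1472 CPM in Phf21bΔ4/Δ4 mice and 445 to 541 CPM in Phf21b+/+ mice, and 5, 8, and 8 of the 8 lay above every Phf21b+/+ mouse in replicates 2, 3, and 6, beside 34.9%, 37.7%, and 30.4% of all genes. In 5 of the 8 this held for all 3 mice, beside 15.0% of all genes. Wfs1, for example, had 37.2, 162, and 210 CPM in replicates 2, 3, and 6 and 35.5 to 56.2 CPM in Phf21b+/+ mice, so that replicate 2 lay within their range. Of 8 interneuron markers, all with values above 0, 1 was past the threshold and higher (Gad2, also on the study's list), beside 0.553% of all genes. Their sums were 698 to 849 CPM in Phf21bΔ4/Δ4 mice and 475 to 541 CPM in Phf21b+/+ mice. In 7 of these 8 every Phf21bΔ4/Δ4 mouse lay above every Phf21b+/+ mouse, beside 15.0% of all genes. For the 9 CA2 and CA3 markers 0 were past the threshold, beside 1.22% of all genes. The sums were 543, 278, and 646 CPM in replicates 2, 3, and 6 and 493 to 574 CPM in Phf21b+/+ mice, with replicate 3 lowest. For 4 mossy cell markers 0 were past it, again beside 1.22% of all genes, and they summed to 77.2 to 123 CPM and 154 to 194 CPM. Calb2, the highest of them, had 52.8, 27.8, and 14.8 CPM in replicates 2, 3, and 6 and 91.6 to 136 CPM in Phf21b+/+ mice, so replicate 6 was the lowest here. The gap between the sums came from Calb2, since the other 3 summed to 55.4 to 70.6 CPM and 58.0 to 62.4 CPM. These 3 went both ways, with log2FCs of -0.94 for Drd2 (FDR 0.14), -0.39 for Calcrl (FDR 0.29), and 0.25 for Ajap1 (FDR 0.20, limma). Drd2 had 1.05, 1.14, and 1.44 CPM against 1.90, 2.66, and 2.43 CPM, so its genotypes did not overlap.

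Among the glial and vascular lists, 1 of 7 astrocyte markers was past the threshold and lower (Aqp4, also on the study's list), beside 0.663% of all genes. The astrocyte sum was 5406 to 6421 CPM in Phf21bΔ4/Δ4 mice and 4782 to 6081 CPM in Phf21b+/+ mice. Most of it was Slc1a2, a glutamate transporter, and the other 6 summed to 1662 to 1965 CPM and 1950 to 2128 CPM. Gfap, the intermediate filament protein of astrocytes, had 317, 230, and 443 CPM in replicates 2, 3, and 6 and 475 to 589 CPM in Phf21b+/+ mice (log2FC -0.70, FDR 0.17, limma). Replicate 6 was the nearest to the Phf21b+/+ mice in Gfap, as in most granule cell markers. The astrocyte list as a whole was not lower, with a median log2FC of 0.07. Only Aqp4 and Gfap were lower at an unadjusted p under 0.05 by limma, beside 12.0% of all genes. The other astrocyte markers had log2FCs from -0.0025 to 0.24. For 7 markers of the oligodendrocyte lineage and 8 of meninges and vessels 0 were past the threshold, beside 1.22% of all genes. The oligodendrocyte sum was 5436, 5664, and 8306 CPM in replicates 2, 3, and 6 and 6619 to 9283 CPM in Phf21b+/+ mice. Against this sum, Pdgfra and Cspg4, which mark oligodendrocyte precursors, were highest in replicates 2 and 3, with Pdgfra at 118, 122, and 92.1 CPM and 77.0 to 90.9 CPM. The meninges and vessels sum was 267, 191, and 91.0 CPM in replicates 2, 3, and 6 and 88.0 to 109 CPM in Phf21b+/+ mice. The high sums of replicates 2 and 3 came mostly from Dcn, at 152, 101, and 3.0 CPM against 10.4 to 12.8 CPM. Without Dcn the sums were 115, 90.2, and 88.0 CPM and 77.6 to 95.8 CPM, and replicates 3 and 6 were close.

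**Figure D4:**
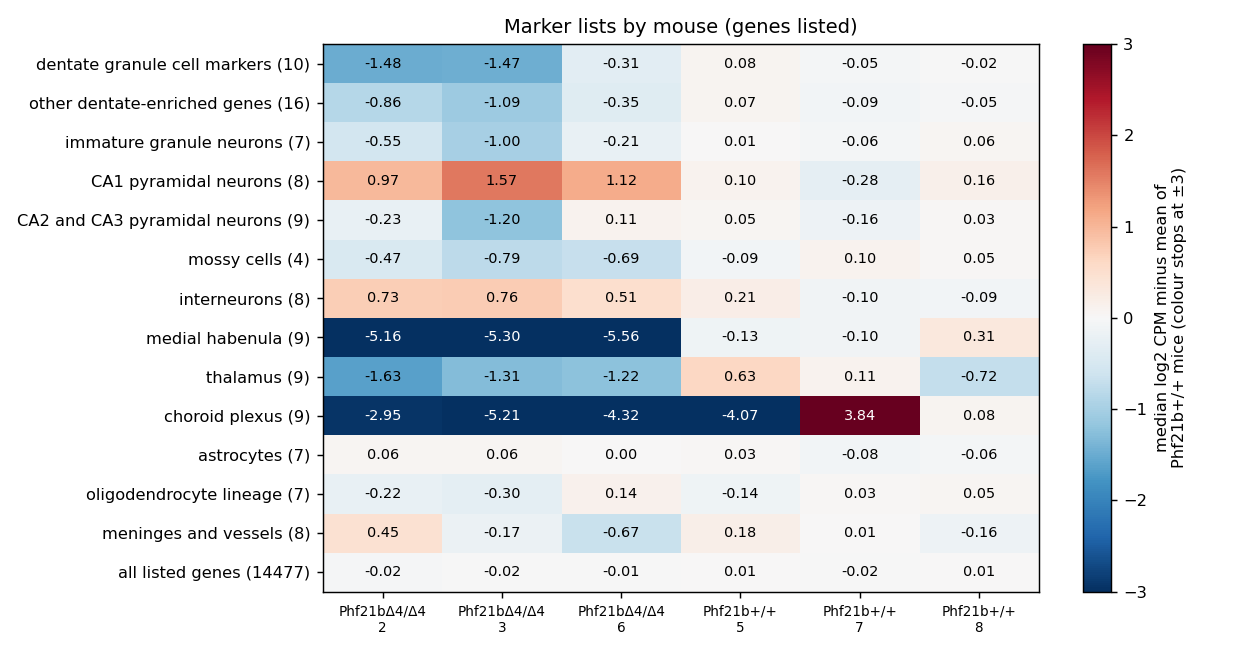
Median over each list of the log2 CPM minus the mean of the Phf21b+/+ mice, with mice in columns, lists in rows, the number of genes listed in brackets, and color that stops at 3 in either direction. The granule cell markers read -1.48, -1.47, and -0.31 in Phf21bΔ4/Δ4 replicates 2, 3, and 6, whereas the medial habenula list is low in all 3 and the CA1 list is above 0 in all 3.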

How the data were processed

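Hippocampal RNA of 6 mice was sequenced after removal of ribosomal RNA (TruSeq Total RNA, Ribo-Zero Gold). The authors trimmed reads with Trimmomatic 0.39, mapped them to GRCm38 with STAR 2.7.3a, counted them over GENCODE genes with featureCounts (Subread 1.6.4), filtered out genes that did not reach 1 CPM in 2 or more libraries, normalized to effective library size with edgeR, and deposited log2 CPM values. Genotypes came from the sample labels. Reads were worked back from the log2 values, since the lowest value stood for 0 reads and others rose in steps of 1 read (100% whole within 0.1 reads).

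Genotypes were compared with limma 3.58.1 in R 4.3.3 (lmFit, eBayes with a trend, no covariate) over 14477 genes, with Benjamini-Hochberg adjustment. The study's thresholds were used, though its own test needs counts. The fit was tested on simulated data. The p-values set the difference between genotypes against the spread of these mice within a genotype, which is moderated toward a trend over all genes. Members and lists were chosen with earlier results of these data known. Genes that could be named were all 10 members, genes of the other dentate list, and, from the other lists, called genes and the one of highest level, and Phf21b. Outside this rule Prox1os and Gm10129 (overlaps), Kcnj13 and Tmem72 (0 reads), Wfs1, Gfap, Pdgfra, and Cspg4 were named after their values were seen. So were Neurod1, Igfbpl1, Eomes, Draxin, Dcx, and Sox11 of the immature granule neuron list and Drd2, Calcrl, and Ajap1 of the mossy cell list. One symbol of the CA1 list, 1 of the mossy cell list, and 1 of the thalamic list were not among the genes. Lengths and positions are GENCODE's (98.6% of symbols matched). Alternatives covered the prior variance, weights, filter, pseudocount, scaling, voom on recovered reads, GC content, length, thresholds, and leaving out each mouse. Sums of lists without their highest gene were added after the values were seen.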

Additional observations from a re-analysis of the deposited data

How the results depend on the processing

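No paired analysis was run, because the litter of each mouse is not given and the replicate numbers state no pairing. The 10 log2 fold changes kept their sign in 169 of 170 recomputed values. The exception was Lct in Phf21bΔ4/Δ4 replicate 6 alone (0.31). Of the 10 markers 1 was past the threshold (16 other dentate genes: 2; all genes: 176). With each mouse left out these counts ran from 0 to 9, from 0 to 12, and from 9 to 2830, each highest without Phf21bΔ4/Δ4 replicate 6. Weighting the mice by arrayWeights gave 9, 12, and 3549, the same prior variance for all genes 0, 0, and 75, an FDR under 0.05 0, 0, and 25, and replicate 6 alone 0, 0, and 49. For the other dentate genes, robust empirical Bayes, centring on the median, and voom gave 1 each, quantile normalization gave 3, and the filter at a mean log2 CPM of at least 1 gave 0. For all genes, that filter gave 101, GC correction 538, and length correction 346. The causes of these shifts were not tested. Scaling and correction moved the median log2 fold change of all genes by under 0.1, from -0.02 as deposited to between 0.02 and 0.07. GC correction gave 141 lower and 397 higher genes, length correction 122 and 224, and the values as deposited 96 and 80. Comparing replicate 6 alone was chosen after the values were seen. The lowest read count of a marker was 63.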
